A study of Mus musculus with 13 samples.

Results

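Mdm2, Mdm4 and Ppm1d are the 3 genes of the negative feedback loop known for p53 that were followed here, and they were chosen by name. They are 3 of the 49585 genes to which the transcripts of the data were assigned, and their 25 annotated transcripts, of 130740 in each library, were all found. Mdm2 has 9 of these transcripts, Mdm4 has 14 and Ppm1d has 2. The question was how the level of each gene moved over dose and time after γ-irradiation, and which Mdm2 transcripts carried the rise.

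Ovaries of five-day-old (P5) CD-1 mice were cultured overnight and irradiated with a caesium source, and oocytes were then freed from follicular cells by trypsin and centrifugation. RNA-seq libraries of the isolated oocytes were made at 0 h, which is before irradiation, and at 1, 2.5, 4 and 6 h. At 0.5 Gy there were 8 libraries, with duplicates at 0, 1 and 4 h and a single library at 2.5 and at 6 h. At 0.2 Gy there were 5 libraries, 1 at each time point. Each time point pooled 4 ovaries, so a library is a pool and not an animal, and no unirradiated ovaries cultured for the same hours were analysed here. The labels place replicate 1 of 0.5 Gy in a first generation, replicate 2 with the 2.5 and 6 h libraries in a second, and all of 0.2 Gy in the third, so dose and generation cannot be told apart. The labels do not say that the replicates came from separate cultures, so p-values measure the spread between these libraries, which may be technical. In the comparisons, early means the libraries of 0 and 1 h, and late means those of 2.5, 4 and 6 h at 0.5 Gy or of 4 and 6 h at 0.2 Gy. A late or early group joins time points and is not a set of replicates of 1 condition, so its SD includes change over time. At 0.5 Gy the late group also holds more libraries of the second generation than of the first, while the early group holds as many of each.

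p53 is restrained by the products of some of its own target genes. Its relative TAp63α is the form that guards the DNA of resting oocytes, where it is held inactive until DNA breaks are signalled. Mdm2 is the E3 ubiquitin ligase that binds the transactivation domain of p53 and marks p53 for degradation. Its gene has a constitutive promoter at the upstream end and a second promoter inside the first intron that responds to p53. Mdm4 is a paralogue of Mdm2 that blocks transactivation and forms a heterodimer with it. Ppm1d encodes WIP1, a phosphatase that takes phosphate groups off p53 and off the kinases ATM and CHK2 that signal DNA breaks. CHK2 is also the kinase that starts the activation of TAp63α in oocytes.

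Mdm2 lies on the minus strand at chr10:117688875-117710758 of GRCm38. Of its 9 transcripts, 5 begin at the upstream promoter (Mdm2-201, Mdm2-202, Mdm2-203, Mdm2-205 and Mdm2-208). These 5 have a first exon that ends at the same base, and in Mdm2-201 and Mdm2-202, which are the protein-coding transcripts with 12 exons each, it spans chr10:117710552-117710758. A further 3 transcripts begin after that first exon and before the start codon of the coding transcripts, and are called downstream-start transcripts here. The 5′ end of Mdm2-207, at base 117710292, and that of Mdm2-206, at base 117710078, lie in the first intron. The 5′ end of Mdm2-209, at base 117710022, lies within the second exon of the coding transcripts, which spans chr10:117709946-117710028, so Mdm2-209 has no bases at its start that the coding transcripts lack. None of the downstream-start transcripts is typed as protein-coding in the annotation. Mdm2-209 has 10 exons and 2769 bases, lacks the 97-base exon at chr10:117695953-117696049 that the coding transcripts have, and is typed as a target of nonsense-mediated decay. Mdm2-206 is a processed transcript of 683 bases. The remaining transcript, Mdm2-204, is a retained intron near the 3′ end of the gene.

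The sequence just before the 5′ end of Mdm2-209 is shown because the intronic promoter of Mdm2 is known to lie there. It is the 270 bases at chr10:117710023-117710292 on the minus strand of GRCm38, read from the GENCODE transcript Mdm2-207. Capitals mark the places where a pair of adjacent p53 half-sites was matched with at most 3 mismatches in 20 bases, with no spacer between the half-sites. The motif reads the same on both strands.
Mdm2 before the downstream start: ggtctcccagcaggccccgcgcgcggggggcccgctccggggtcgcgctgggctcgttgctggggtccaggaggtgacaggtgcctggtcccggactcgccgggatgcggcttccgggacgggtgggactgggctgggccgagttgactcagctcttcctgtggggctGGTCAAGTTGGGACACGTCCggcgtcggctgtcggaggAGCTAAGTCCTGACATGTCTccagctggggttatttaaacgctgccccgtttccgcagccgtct
There were 2 such matches, at chr10:117710105-117710124 and chr10:117710067-117710086, each with 3 mismatches. They lie 18 bases apart, and 44 bases separate the nearer from the 5′ end of Mdm2-209. The first match lies before the 5′ end of Mdm2-206, which begins inside the second. Of 32851 RefSeq promoters of the same build cut to 270 bases, 5.68% held at least 1 match and 0.381% held at least 2 by the same rule, with overlapping matches counted. The rule was set after the sequence had been seen, and a match is a description of letters and not a binding site.

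The upstream promoter of Mdm2 in RefSeq, the 300 bases at chr10:117710709-117711008 on the minus strand of GRCm38.p6, held no match. The Ppm1d promoter, at chr11:85311004-85311303 on the plus strand, held none either. Of the Mdm4 promoters in RefSeq, that at chr1:133025367-133025666 on the minus strand held 1 match with 3 mismatches, at chr1:133025626-133025645, and that at chr1:133030538-133030837 held none. Among promoters of 300 bases, 6.29% held at least 1 match. The match in the Mdm4 promoter is shown for comparison with the Mdm2 window.
Mdm4 promoter match: AGGTATGCTGTGGCAAGCCT

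**Figure D1:**
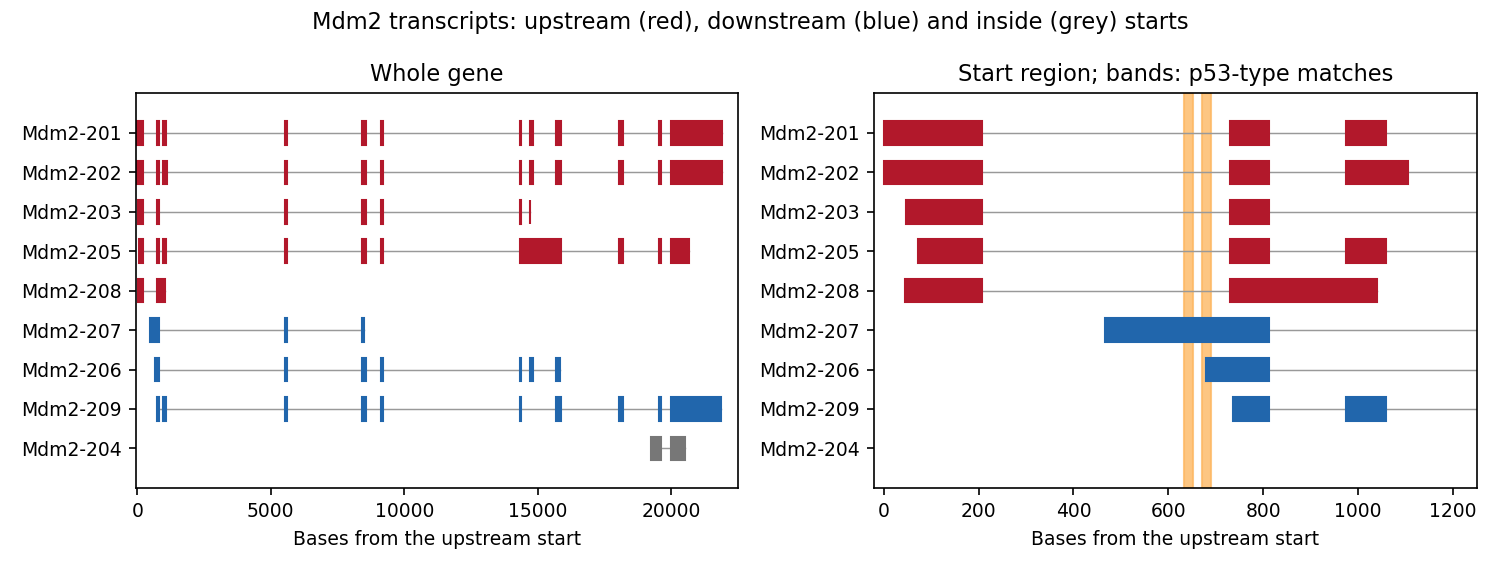
The 9 annotated Mdm2 transcripts, with exons as boxes and introns as lines, plotted by distance in bases from the upstream start over the whole gene (left) and the start region (right). The orange bands are the 2 matches to p53 half-site pairs, which lie in the first intron of the 5 upstream-start transcripts (red), before the 5′ end of Mdm2-209 and partly before that of Mdm2-206 (blue).

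Each library held between 15709549 and 30430104 estimated reads, and the lowest was replicate 2 of 0 h at 0.5 Gy. All 12 oocyte markers checked were detected, with a summed level of 3865 to 5199 CPM in the early and 4043 to 4753 CPM in the late libraries of 0.5 Gy. CPM is a counts-per-million scale, here after TMM scaling of the libraries. Markers of other cell types were present too. The 10 granulosa cell markers summed to 1503 to 2392 CPM over the 13 libraries, and the 6 stroma markers to 1776 to 3469 CPM. The 5 red blood cell markers summed to 859 to 6179 CPM and the 4 macrophage markers to 10.8 to 29.2 CPM. The 5 granulocyte markers summed to 5.37 CPM in the lowest library and reached 443.5 CPM in replicate 2 of 0 h at 0.5 Gy. No marker stayed under 1 CPM in every library, and 0 markers were called late against early at 0.5 Gy with edgeR. In such bulk samples, fewer cells of a type and less RNA per cell cannot be told apart.

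Mdm2 rose late against early after 0.5 Gy, and stood higher from 2.5 h on in both doses. At 0.5 Gy its level was 58.0 and 64.0 CPM in the libraries of 0 h and 53.1 and 75.9 CPM in those of 1 h. It was 268 CPM at 2.5 h, 234.5 and 476 CPM at 4 h and 589 CPM at 6 h. The 4 late libraries lay above all 4 early ones, and the lowest late library was the first-generation one of 4 h. The mean went from 62.8 ± 9.86 CPM (SD, n = 4) to 392 ± 170 CPM (SD, n = 4), a ratio of means of 6.25. The late libraries differed among themselves by 2.51 times and the early ones by 1.43 times.

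The late against early log2 fold change of Mdm2 at 0.5 Gy was 2.63 with an SE of 0.29 and a Benjamini-Hochberg adjusted p of 0.00362 in edgeR's quasi-likelihood test. Calls needed an adjusted p below 0.05 together with a log2 fold change beyond 1 in size. By this rule Mdm2 was the only called gene among the 3, and 0.128% of the 22588 genes tested were called, all of them higher late. Mdm2 ranked 4 of these genes by p and 44 by log2 fold change. It was called in each of the 8 fits that left out 1 library, with a log2 fold change of 2.37 to 2.83 and an adjusted p of 0.00471 to 0.0322 in edgeR. With counts scaled from TPM in place of the summed reads, no gene was called, and the log2 fold change of Mdm2 was 2.81 with an adjusted p of 0.139 in edgeR.

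**Figure D2:**
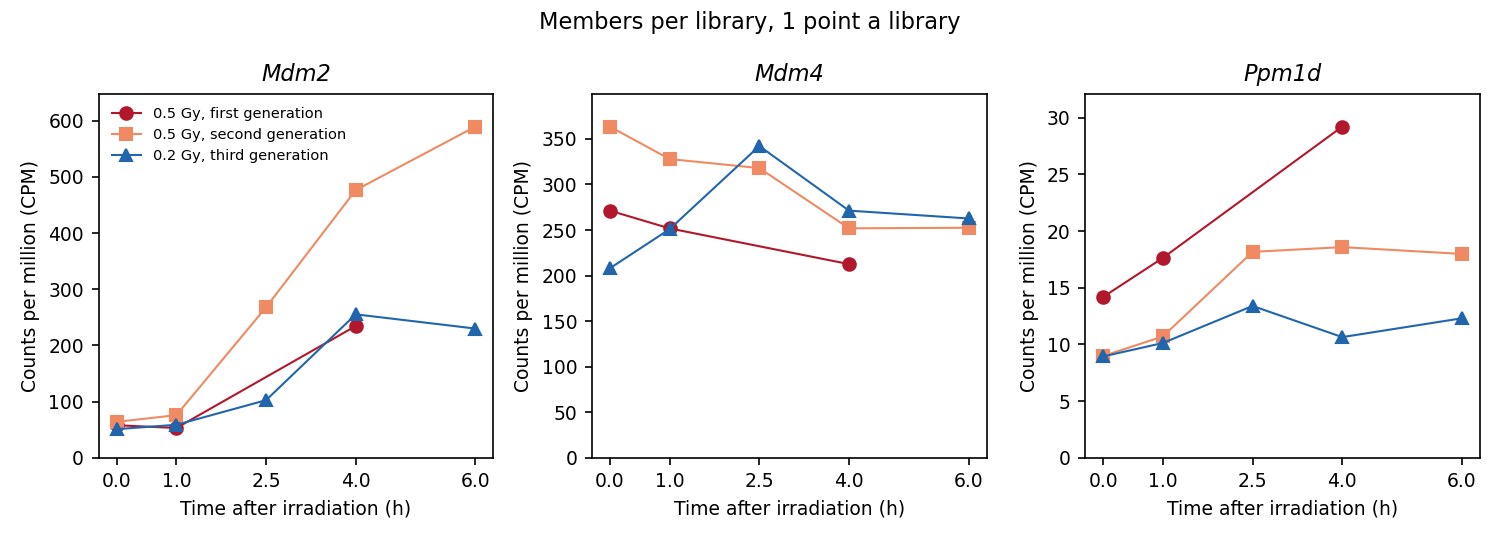
Level of Mdm2, Mdm4 and Ppm1d in CPM against hours after irradiation, with 1 point a library and lines that join libraries of the same dose and generation. Mdm2 climbed from 51.0 to 75.9 CPM at 0 and 1 h to as much as 589 CPM at 6 h after 0.5 Gy, whereas Mdm4 stayed between 208 and 363.5 CPM and Ppm1d between 8.95 and 29.2 CPM.

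Against 0 h alone, the fitted log2 fold change of Mdm2 at 0.5 Gy was 0.10 with an SE of 0.36 at 1 h. By 2.5 h it was 2.15 with an SE of 0.42, by 4 h 2.57 with an SE of 0.38 and by 6 h 3.31 with an SE of 0.43. For the single libraries of 2.5 and 6 h the spread was that between duplicates of other time points. In edgeR the adjusted p-values were 0.526, 0.245 and 0.117 in the same order, so none of these passed. With the generation of the library as a block, Mdm2 was called at 4 h (adjusted p 0.0476) and 6 h (0.0444) in edgeR, where 0.0211% and 0.0246% of all genes were called. Without the block, 0 of 28468 genes (0%) were called with edgeR at each of the 4 time points. Unadjusted p-values under 0.05 numbered 1133, 1590, 1658 and 1691 in order of time. DESeq2 called 20, 83, 124 and 139 genes in the same order, or 0.0834%, 0.407%, 0.608% and 0.712% of those it tested. By unadjusted p Mdm2 ranked 33 at 2.5 h, 9 at 4 h and 7 at 6 h. With the Wald test of DESeq2, Mdm2 passed at 2.5 h (log2 fold change 1.70, adjusted p 0.00202), 4 h (2.11, 1.58e-07) and 6 h (2.55, 5.05e-09).

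Within a generation, Mdm2 was set against its own 0 h library. In the first generation it was 0.914 times the 0 h level at 1 h and 4.04 times at 4 h. In the second generation it was 1.19 times at 1 h, 4.19 times at 2.5 h, 7.44 times at 4 h and 9.21 times at 6 h. The 4 h level was thus above the 0 h level in both generations of 0.5 Gy, by a different factor in each. The 2.5 h library, of the second generation, lay between the 4 h replicates and above the first-generation one alone. Within the second generation the level was higher at each later time point, but these are single libraries and their order was not tested. The levels at 0 and 1 h overlapped.

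At 0.2 Gy the single libraries of Mdm2 read, in order of time, 51.0, 58.8, 103, 255 and 230.0 CPM. Against the 0 h library of that dose, the later ones stood at 1.15, 2.01, 5.00 and 4.51 times. Both late libraries lay above both early ones. The 2.5 h library of 0.2 Gy, at 2.01 times its 0 h level, stood lower than the 2.5 h library of 0.5 Gy, at 4.19 times, but each is a single library and the difference was not tested. The 4 h level of 0.2 Gy lay between the replicates of 4 h at 0.5 Gy, and the 6 h level lay below the single 6 h library of 0.5 Gy.

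Late against early, the log2 fold change of Mdm2 at 0.2 Gy was 2.13 with an SE of 0.34 and an unadjusted p of 3.62e-05, and its adjusted p of 0.0639 in edgeR's quasi-likelihood test missed the threshold. In this fit of 11 libraries of both doses, 0.0462% of 28162 genes were called and Mdm2 ranked 15 by p. It was called there without a low-count filter, where 0.0672% of genes were called, with the generation as a block (adjusted p 0.00665 in edgeR, 0.0533% of genes called) and with DESeq2, which called 0.539% of the genes. Over the fits without 1 library its adjusted p in edgeR ran from 0.00739, without replicate 1 of 4 h at 0.5 Gy, which enters only the shared spread, to 0.553, without the 0 h library of 0.2 Gy. It was called in the former alone of these 11 fits. With the 2.5 h libraries added to the late side, the log2 fold change was 1.82 with an adjusted p of 0.183 in edgeR. The change at 0.5 Gy minus that at 0.2 Gy was 0.65 on the log2 scale with an SE of 0.41 and an adjusted p of 0.692 in edgeR, where 0.032% of genes were called. A dose difference in Mdm2 was therefore not detectable, and dose and generation cannot be told apart here.

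**Figure D3:**
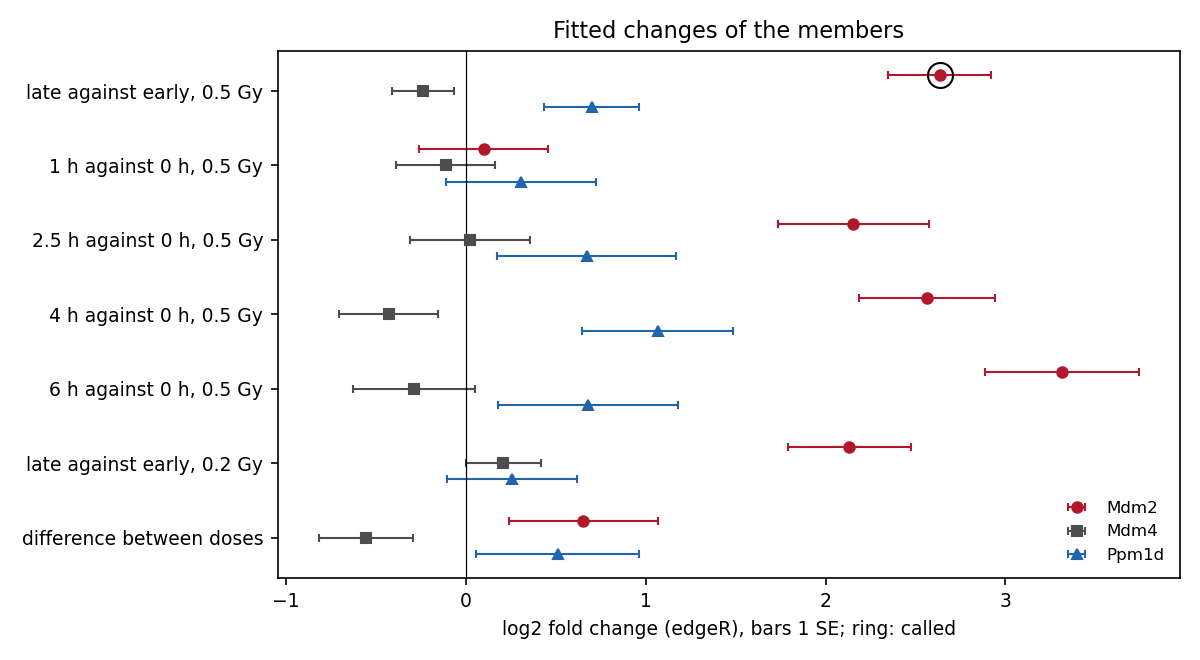
Fitted log2 fold changes of Mdm2, Mdm4 and Ppm1d from edgeR in each comparison, with bars of 1 SE and a ring around the 1 value that was called. Mdm2 is at 2.15 or above at 2.5, 4 and 6 h and in the late against early comparison of 0.5 Gy, while no value of Mdm4 or Ppm1d was called.

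Most of the rise of Mdm2 was assigned to downstream-start transcripts, and within them to Mdm2-209. On the transcripts-per-million (TPM) scale, which is corrected for length, Mdm2-209 was at 3.91 and 6.70 at 0 h and at 3.46 and 6.25 at 1 h after 0.5 Gy. It was at 26.0 TPM at 2.5 h, 20.4 and 43.4 TPM at 4 h and 59.8 TPM at 6 h. All late libraries lay above all early ones. At 0.2 Gy Mdm2-209 was at 4.17, 5.20, 9.56, 24.9 and 20.1 TPM in order of time.

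Mdm2-206, the short downstream-start transcript, was at 0 and 1.80 TPM at 0 h and at 1.35 and 2.80 TPM at 1 h after 0.5 Gy. It was at 14.2 TPM at 2.5 h, 5.75 and 27.3 TPM at 4 h and 44.5 TPM at 6 h. The late libraries again lay above the early ones. At 0.2 Gy it was at 1.79, 2.69, 5.29, 13.5 and 9.55 TPM in order of time. Mdm2-207, the remaining downstream-start transcript, stayed under 1 TPM in all 13 libraries.

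Of the coding transcripts, Mdm2-202 was at 0 TPM in both libraries of 0 h and at 0.82 and 0.76 TPM at 1 h after 0.5 Gy. It was at 2.62 TPM at 2.5 h, 1.5 and 0.79 TPM at 4 h and 3.41 TPM at 6 h, so that the lowest late library lay below the highest early one. At 0.2 Gy Mdm2-202 was at 0.11, 0.34, 0.17, 2.23 and 1.30 TPM in order of time, with both late libraries above both early ones and a late mean 7.73 times the early mean. At 0.5 Gy Mdm2-201, the coding transcript with the same first exon, was between 0.27 and 0.93 TPM early and between 0.03 and 1.00 TPM late, with overlapping groups. At that dose the retained intron Mdm2-204 was between 0.22 and 1.32 TPM early and between 2.11 and 4.30 TPM late, without overlap. The upstream-start transcript Mdm2-205 was lower, at 0.21 to 0.28 TPM early and 0.51 to 0.81 TPM late after 0.5 Gy, also without overlap. After 0.2 Gy its late libraries were apart, with 0.85 TPM at 4 h and 0.24 TPM at 6 h, beside 0.22 and 0.28 TPM early.

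Of the rise in mean CPM from early to late at 0.5 Gy, 83.1% was assigned to Mdm2-209, which went from 45.8 to 320 CPM. A further 9.13% was assigned to Mdm2-206 and 4.73% to Mdm2-202. The 3 downstream-start transcripts together went from 48.0 to 352 CPM, which was 92.4% of the rise. The 5 upstream-start transcripts together went from 13.1 to 32.6 CPM, 2.48 times their early mean and 5.91% of the rise. As a class they did not overlap either, at 7.97 to 17.1 CPM in the early and 24.9 to 38.7 CPM in the late libraries. In TPM, where a short transcript weighs more per read, Mdm2-209 took 54.3% and Mdm2-206 36.0% of the rise, and the downstream starts together 91.0%.

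At 0.2 Gy Mdm2-209 again took the largest part, with 83.6% of the rise in CPM and 59.1% of that in TPM. In CPM it was followed by the coding Mdm2-202 with 8.01% and by Mdm2-206 with 6.82%, and in TPM by Mdm2-206 with 30.9% and Mdm2-202 with 5.10%. The downstream starts together took 90.5% in CPM and 90.1% in TPM, and the upstream starts 8.13% and 6.03%. These shares describe means of 2 early and 2 late libraries and carry no test.

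**Figure D4:**
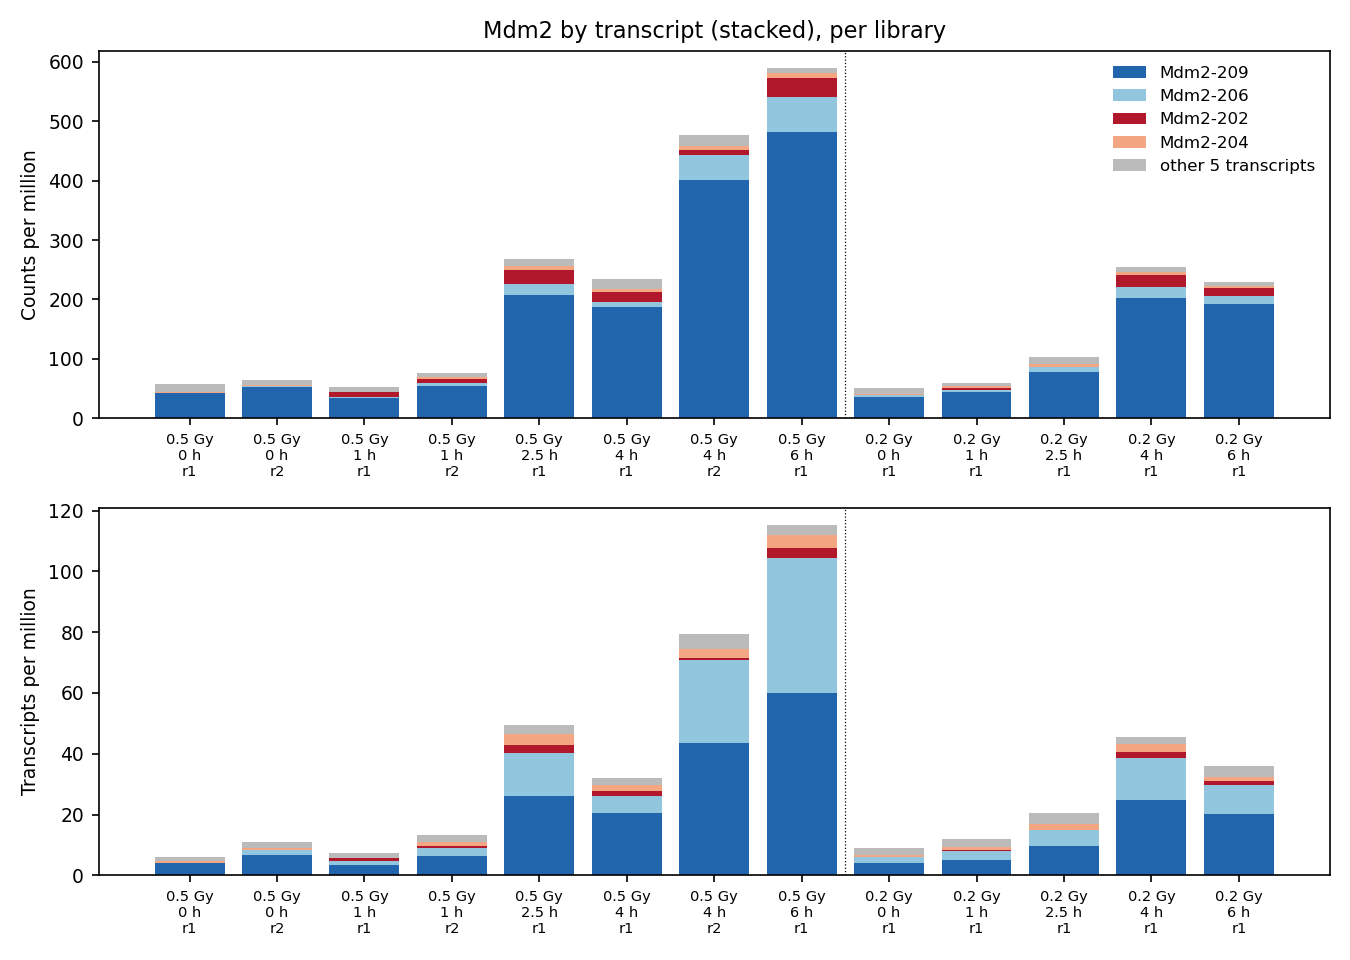
Mdm2 level per library, stacked by transcript, in CPM (top) and in TPM (bottom), with 0.5 Gy to the left and 0.2 Gy to the right of the dotted line. Mdm2-209 (dark blue) makes up most of each bar in CPM, and the short Mdm2-206 (light blue) takes a larger part in TPM, up to 44.5 of 115 TPM at 6 h after 0.5 Gy.

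The share of Mdm2 TPM in downstream-start transcripts was computed per library. At 0.5 Gy the 0 h libraries held 66.2% and 78.8%, those of 1 h 67.9% and 68.9%, that of 2.5 h 83.0%, those of 4 h 81.5% and 90.3% and that of 6 h 91.0%. Every late library lay above every early one, although the early library with 78.8% came close to the lowest late one. The mean share was 70.5% ± 5.69 early and 86.5% ± 4.92 late (SD, n = 4 each), a difference of 16.0 percentage points. A two-sided exact permutation test gave p = 0.0286, the smallest that 4 against 4 libraries allow, and 0.0714 after Benjamini-Hochberg adjustment over the 5 tests of this kind, which misses 0.05. The 5 include the coding share of Ppm1d, which annotation fixes at 100%, so that its p of 1 tests nothing and still enlarges the family. These permutation tests ignore the generation, which is not balanced between late and early. The downstream-start share was higher in the second generation than in the first at 0, 1 and 4 h.

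In TPM the share was higher late than early also within each generation. In the first generation it went from 66.2% at 0 h to 81.5% at 4 h, and in the second from 78.8% to 90.3% at 4 h. At 0.2 Gy it was 66.4%, 65.5%, 72.9%, 84.6% and 82.9% in order of time. With shares of estimated reads in place of TPM the difference at 0.5 Gy was 12.5 percentage points, with p = 0.0857 in the exact permutation test. In reads the groups overlapped, since replicate 2 of 0 h, at 86.1%, lay above the 2.5 h library of its own generation, at 84.5%, and above replicate 1 of 4 h, at 83.8%.

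The share of Mdm2 TPM in protein-coding transcripts was 15.5% and 4.96% in the 0 h libraries of 0.5 Gy and 18.5% and 7.74% in those of 1 h. Later it was 5.90% by 2.5 h, 7.82% and 2.13% by 4 h and 2.99% by 6 h. The groups overlapped. The mean was 11.7% ± 6.35 early and 4.71% ± 2.63 late (SD, n = 4 each), and a two-sided exact permutation test gave p = 0.143 and 0.238 after adjustment. A lower share is not a lower level, since the coding transcripts are all of the upstream class and that class went up in mean CPM. No coding transcript with a downstream start is annotated. Reads of such an RNA, if present, would be assigned to other transcripts, so the coding share need not count it.

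How firmly these transcripts can be separated is limited by their sequence. Reads of 30 bases can be told apart only where the transcripts differ over that length. Of the 2719 stretches of 30 bases in Mdm2-209, 27 (0.993%) occur in no other transcript of the annotation, and 99.0% also occur in Mdm2-201. Mdm2-206 and Mdm2-201 have no such stretch of their own, and Mdm2-202 has 68. Taken as classes, 36.0% of the stretches of the upstream-start transcripts and 9.14% of those of the downstream-start transcripts occur only in their class within the annotation. Since the exons of Mdm2-209 all lie within those of Mdm2-201, its 27 own stretches can lie only across the join left by the absent 97-base exon. The assignment of reads to Mdm2-209, and with it most of the downstream-start share, therefore rests on that join and on salmon's estimate, not on bases particular to a downstream start. Bases of the first intron are held by Mdm2-206 and Mdm2-207 alone among these 3. By contrast, only 2.08% of the stretches of the whole gene are shared with other genes.

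Of the 25 transcripts, 18 passed the low-count filter in a test over all transcripts of 0.5 Gy, and 7 did not. With edgeR none of 56680 transcripts was called (0%), 3050 had an unadjusted p under 0.05, and DESeq2 called 345 of 73939 (0.467%). For Mdm2-209 the late against early log2 fold change was 2.77 with an SE of 0.34, an unadjusted p of 2.13e-05 and an adjusted p of 0.151 in edgeR. It was 1.32 with an SE of 0.30 for Mdm2-205 (unadjusted p 0.00178) and 2.08 with an SE of 0.54 for Mdm2-204 (0.00379). It was 3.94 with an SE of 1.08 for Mdm2-206 (0.00539) and 2.24 with an SE of 1.39 for Mdm2-202 (0.142). For Mdm2-201 it was −0.12 with an SE of 0.89. DESeq2 called 3 transcripts of the genes, namely Mdm2-209, the upstream-start Mdm2-205 and the retained intron Mdm2-204, while Mdm2-206 missed with an adjusted p of 0.0781 in DESeq2. Of the 30-base stretches of Mdm2-205, 39.6% occur in no other transcript.

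Mdm4 was not called in any comparison. Its late against early value was below 0 at 0.5 Gy and above 0 at 0.2 Gy, and the difference did not pass the test. The gene lies on the minus strand at chr1:132959484-133030561, where a processed pseudogene, Gm29257, overlaps it on the other strand. At 0.5 Gy Mdm4 was at 271 and 363.5 CPM at 0 h, 252 and 328 CPM at 1 h, 318 CPM at 2.5 h, 213 and 252 CPM at 4 h and 252 CPM at 6 h. The groups overlapped, with a mean of 304 ± 51.3 CPM early and 259 ± 43.7 CPM late (SD, n = 4 each). The log2 fold change was −0.24 with an SE of 0.17 and an adjusted p of 0.711 in edgeR. With the generation as a block it was −0.32 with an SE of 0.12, an unadjusted p of 0.0238 and an adjusted p of 0.490 in edgeR.

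Against 0 h, the log2 fold change of Mdm4 at 0.5 Gy was −0.11 (SE 0.27) at 1 h and 0.02 (SE 0.33) at 2.5 h. By 4 h it was −0.43 (SE 0.27) and by 6 h −0.29 (SE 0.34). The value at 2.5 h had the other sign with the size factors of DESeq2, among other settings. Within the first generation Mdm4 was at 0.928 of its 0 h level at 1 h and 0.784 at 4 h. In the second the later libraries were at 0.902, 0.875, 0.693 and 0.695 of it in order of time. All 6 later libraries of 0.5 Gy thus stood below the 0 h library of their own generation. The ratios of the second generation all rest on 1 library of 0 h, which at 363.5 CPM held the highest Mdm4 level of the 13. That library also had the fewest estimated reads. The share of all genes that lay below 0 h in this way was not counted.

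At 0.2 Gy the levels of Mdm4 were 208, 251, 342, 271 and 263 CPM in order of time. All 4 later libraries stood above the 0 h library, at 1.21, 1.65, 1.30 and 1.26 times its level. That comparison rests on 1 library of 0 h, the lowest Mdm4 level of the 13. The late against early log2 fold change at 0.2 Gy was 0.21 with an SE of 0.21. The difference between the doses was −0.56 with an SE of 0.26, an unadjusted p of 0.0551 and an adjusted p of 0.612 in edgeR, so it did not pass. With the size factors of DESeq2 the unadjusted p was 0.0460 and the adjusted p 0.585 in edgeR. With the generation as a block the difference was −0.60 with an SE of 0.19. Its unadjusted p was then 0.00884 and its adjusted p 0.431 in edgeR, so it did not pass there either.

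Most reads of Mdm4 were assigned to Mdm4-210, a coding transcript of 7105 bases, from 6184 of 6712 estimated reads in replicate 1 of 0 h at 0.5 Gy down to 6444 of 8272 in the 1 h library of 0.2 Gy. The coding transcripts together held 91.0% of the estimated reads early and 91.5% late at 0.5 Gy. Because that transcript is long, it takes a smaller part in TPM. Mdm4-210 was at 8.11 and 13.6 TPM at 0 h, 8.12 and 11.9 TPM at 1 h, 13 TPM at 2.5 h, 7.45 and 8.71 TPM at 4 h and 9.93 TPM at 6 h after 0.5 Gy. At 0.2 Gy it was between 7.38 and 11.5 TPM, highest at 2.5 h. No late or early group stood apart.

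Short transcripts made up most of the rest of Mdm4 TPM. The processed transcript Mdm4-212 averaged 6.50 TPM over the 13 libraries, the retained intron Mdm4-204 averaged 5.58 TPM and the short coding transcript Mdm4-213 averaged 3.85 TPM. Mdm4-205, Mdm4-207, Mdm4-209 and Mdm4-211, which are all retained introns, averaged between 1.00 and 1.41 TPM, and the remaining 6 stayed under 1 TPM on average. The coding share of Mdm4 TPM was 36.7% to 60.6% early and 46.8% to 53% late at 0.5 Gy. Its mean was 47.2% ± 10.9 early and 49.4% ± 2.58 late (SD, n = 4 each), and a two-sided exact permutation test gave p = 0.714. Of the 30-base stretches of the Mdm4 transcripts, 14.4% are shared with other genes, and of those of Mdm4-210 alone 28.5% are, so some of its reads could belong elsewhere.

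Compared per length, Mdm4 stood above Mdm2 in every early library and below it in every late one. Before irradiation at 0.5 Gy, Mdm2 was at 5.98 and 10.9 TPM and Mdm4 at 19.5 and 45.7 TPM. At 6 h after 0.5 Gy, Mdm2 was at 115 TPM and Mdm4 at 25.9 TPM. The ratio of Mdm2 to Mdm4 TPM was 0.307 and 0.239 in the 0 h libraries and 0.295 and 0.394 in those of 1 h. It was 1.51 by 2.5 h, 2.09 and 3.11 by 4 h and 4.44 by 6 h. On the log2 scale its mean went from −1.72 ± 0.30 to 1.36 ± 0.68 (SD, n = 4 each), a difference of 3.08. A two-sided exact permutation test gave p = 0.0286, the smallest possible, and 0.0714 after adjustment over the 5 tests.

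At 0.2 Gy the same ratio was, in order of time, 0.364, 0.312, 0.427, 1.20 and 1.03. In TPM it passed 1 between 2.5 and 4 h there, and at or before 2.5 h at 0.5 Gy, with a single library for each dose at 2.5 h. In estimated reads, which are not corrected for length, the ratio was lower, at 0.842 by 2.5 h after 0.5 Gy and at 0.941 and 0.876 by 4 and 6 h after 0.2 Gy, and it passed 1 in the libraries of 4 and 6 h after 0.5 Gy alone. Part of the TPM of both genes sits in transcripts that are not typed as coding. The ratio therefore compares RNA of the genes, not messages for the proteins. How much of the Mdm2 RNA codes for protein cannot be read from the transcript types, since no coding transcript with a downstream start is annotated.

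**Figure D5:**
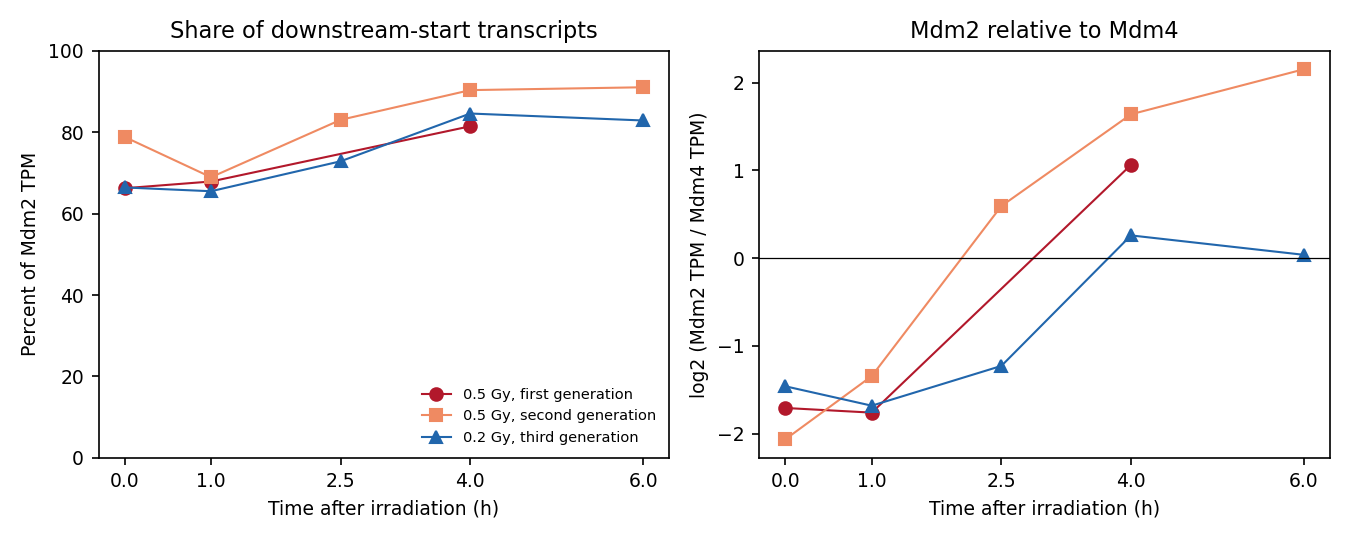
Share of Mdm2 TPM in downstream-start transcripts, in percent (left), and log2 ratio of Mdm2 to Mdm4 TPM (right) against hours after irradiation, with 1 point a library and lines that join libraries of the same dose and generation. Late libraries of 0.5 Gy hold 81.5% to 91.0% downstream starts against 66.2% to 78.8% early, and their log2 ratio is 0.59 to 2.15 against −2.06 to −1.34 early.

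Ppm1d was the least abundant of the 3 genes, at 1.15 to 3.35 TPM over the 13 libraries. It lies on the plus strand at chr11:85311244-85347066. At 0.5 Gy it was at 14.2 and 8.98 CPM at 0 h, 17.6 and 10.7 CPM at 1 h, 18.2 CPM at 2.5 h, 29.2 and 18.6 CPM at 4 h and 18.0 CPM at 6 h. The lowest late library, at 18.0 CPM, lay just above the highest early one, at 17.6 CPM. Mdm2 and Ppm1d both had all late libraries above all early ones at 0.5 Gy, as did 3.16% of the genes tested.

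The mean of Ppm1d went from 12.9 ± 3.84 to 21 ± 5.49 CPM (SD, n = 4 each), a ratio of 1.63. The log2 fold change was 0.70 with an SE of 0.26, an unadjusted p of 0.0212 and an adjusted p of 0.469 in edgeR's quasi-likelihood test, so Ppm1d was not called. Against 0 h it was 0.31 with an SE of 0.42 at 1 h, 0.67 with an SE of 0.50 at 2.5 h, 1.07 with an SE of 0.42 at 4 h and 0.68 with an SE of 0.50 at 6 h. The generations differed in level, with both early first-generation libraries above both early second-generation ones.

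Within the first generation Ppm1d was 1.2 times its 0 h level at 1 h and 2.06 times at 4 h. In the second it was 1.19 times at 1 h, 2.02 times at 2.5 h, 2.07 times at 4 h and 2.00 times at 6 h. At 0.2 Gy it was at 8.95, 10.1, 13.4, 10.7 and 12.3 CPM in order of time, and its ratios to 0 h were 1.13, 1.5, 1.19 and 1.38. The 2.5 h library was the highest of that dose.

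The log2 fold change of Ppm1d late against early at 0.2 Gy was 0.25 with an SE of 0.36, and the difference between the doses was 0.51 with an SE of 0.45 and an adjusted p of 0.783 in edgeR. All 3 genes had both late libraries above both early ones at 0.2 Gy, where 20.9% of the genes tested did so. Both Ppm1d transcripts are coding, so its coding share is 100% by annotation. Ppm1d-201, of 2899 bases, held 79.4% or more of its TPM in each library, and its stretches of 30 bases are shared with no other gene.

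The genes around the loop were described in 5 lists by role, and calls at 0.5 Gy were found in the last of them alone. Over all genes tested 0.128% were called, so 0 calls in a list of 11 to 20 genes is near that share. Of 18 E3 ligases of p53 family proteins other than Mdm2, 17 were tested and 1 name matched no gene. None was called late against early at 0.5 Gy, 2 had an unadjusted p under 0.05, and their median log2 fold change was −0.07 beside −0.02 over all 22588 genes. Over all of these genes, 2046 had an unadjusted p under 0.05. With the largest absolute values, Siah1a was at −0.59 with an SE of 0.29 and Cul9, a cullin scaffold protein, at 0.49 with an SE of 0.25. Of these 17 genes, 7 had a positive value.

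Of 20 genes whose proteins bind or modify Mdm2 and Mdm4, among them ribosomal proteins and the deubiquitinase Usp7, all were tested and none was called, with 5 at an unadjusted p under 0.05. Their median was −0.03. Daxx, an adaptor that holds Mdm2 together with Usp7, went from 10.7 to 16.3 CPM early to 15.4 to 26.9 CPM late, with a log2 fold change of 0.77, an SE of 0.23 and an adjusted p of 0.370 in edgeR. Yy1, a transcription factor, was at −0.51 with an SE of 0.21.

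The phosphatases related to Ppm1d were not called either. Of 13 PPM family members, 11 were tested, while Ppm1j and Ppm1n did not pass the low-count filter. Of these, 1 had an unadjusted p under 0.05, and the median was −0.03. Ppm1b was at −0.52 with an SE of 0.24 and Ppm1f at 0.45 with an SE of 0.26.

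Of 11 kinases and substrates known for Ppm1d, none was called, 2 had an unadjusted p under 0.05 and the median was −0.02. Trp73, the p73 member of the p53 family, was at 0.20 to 0.73 CPM early and 0.60 to 5.18 CPM late, with a log2 fold change of 2.53, an SE of 0.71 and an adjusted p of 0.322 in edgeR. Chek2, which encodes CHK2, was at 21 to 29.0 CPM early and 32.7 to 37.1 CPM late, with a log2 fold change of 0.45, an SE of 0.17 and an adjusted p of 0.469 in edgeR. The late libraries of Chek2 lay above the early ones at 0.5 Gy, as did those of 3.16% of the genes tested, while the groups of Trp73 overlapped. Late against early at 0.2 Gy, the log2 fold change was 0.0009 with an SE of 0.24 for Chek2 and 1.18 with an SE of 0.72 for Trp73.

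A last list held 12 other p53 targets that restrain the cell cycle, growth signalling or the pathway itself. Of these, 5 rose late against early at 0.5 Gy, none fell, and the median log2 fold change was 1.20. The list was put together with earlier results of these data known, so its direction is not independent evidence. Cdkn1a, the inhibitor p21 of cyclin-dependent kinases, rose from 3.72 to 11.6 CPM early to 45.8 to 94.3 CPM late, a log2 fold change of 3.32 with an SE of 0.36 and an adjusted p of 0.00362 in edgeR. Ccng1, cyclin G1, which brings a phosphatase to Mdm2, rose from 45.0 to 79.7 CPM early to 190 to 319 CPM late, a log2 fold change of 1.95 with an SE of 0.22.

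Trp53inp1, a stress protein that binds p53, rose by 1.42 on the log2 scale with an SE of 0.14, from 74.5 to 94.7 CPM early to 205 to 248 CPM late. Phlda3, an inhibitor of Akt, rose by 2.72 with an SE of 0.35, to 12.1 to 25.5 CPM late. Sesn2, an inhibitor of TORC1 signalling, rose by 2.48 with an SE of 0.36, to 9.78 to 27.0 CPM late. The other 7 genes of the list had an adjusted p of 0.0649 or more in edgeR.

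At 0.2 Gy, 0 genes of these 5 lists were called late against early with edgeR. Unadjusted p-values under 0.05 were found for 7 of the 12 restraining targets, whose median log2 fold change was 0.87, for 2 of the E3 ligases, for 1 of the binders and for none of the other lists, beside 2054 of all 28162 genes. The medians of the other lists were 0.28 for the E3 ligases, 0.20 for the binders, 0.09 for the phosphatases and 0.30 for the kinases and substrates, beside −0.03 over all genes. In the difference between doses, 0 genes of the lists were called.

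The genes whose log2 CPM followed Mdm2 most closely over the 13 libraries, of 31254 compared, were Fermt1, Ankrd65, D630023F18Rik, Sart3 and Polk. Pearson's r was 0.966 for Fermt1, 0.962 for Ankrd65, 0.954 for D630023F18Rik, 0.952 for Sart3 and 0.949 for Polk, and Spearman's rho was between 0.813 and 0.940. The libraries share time point and generation, so r is a description of likeness here. Likeness to Mdm2 over these same libraries favours genes that differ late against early, so that 4 of the 5 were called at 0.5 Gy (0.128% of all genes tested) adds nothing to it, and Sart3 was not called. D630023F18Rik ranged from 0.41 to 76.1 CPM over the 13 libraries and Polk, a DNA polymerase for bypass of lesions, from 17.8 to 63.6 CPM.

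The genes most like Mdm4 were Rictor, a subunit of TORC2 (r 0.901), Depdc7 (0.859) and Rnf113a2 (0.858). Those most like Ppm1d were Bloc1s2 (0.890), Gm28305 (0.881) and Pla2g7 (0.879), of which Gm28305 never passed 1.01 CPM. None of these 6 genes was called late against early at 0.5 Gy. Among the 3 genes themselves r was 0.549 between Mdm2 and Ppm1d, −0.132 between Mdm2 and Mdm4 and −0.328 between Mdm4 and Ppm1d.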

How the data were processed

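The 13 libraries of 30-base reads were used. The authors ran salmon on Ensembl transcripts of GRCm38 and deposited estimated counts per library, neither normalized nor filtered. The TPM values in the same deposited files were also computed by the authors with salmon. Tables of the authors' own DESeq2 comparisons (version 1.24.0 in the submitters' processing notes) and of merged normalized counts were not used.

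Estimated counts were summed per gene of GENCODE M21, matched by transcript identifier, and rounded. A total of 402 transcripts without a gene, with 0.318% to 0.495% of the reads, were left out. edgeR 4.0.16 in R 4.3.3 was used with TMM, filterByExpr and the quasi-likelihood test, with Benjamini-Hochberg adjustment over all genes or transcripts tested. CPM are TMM-normalized over the 13 libraries. The 0.2 Gy comparison and the difference between doses used 11 libraries, without those of 2.5 h. Likeness used log2 CPM with a prior count of 2. Shares and the Mdm2 to Mdm4 ratio were compared by two-sided exact permutation tests. DESeq2 1.42.0 with beta prior was an alternative (without it for the difference between doses), beside other scalings, filters, a replicate block, scaled TPM and fits without 1 library. Intervals and floors were not used, since the estimates carry salmon's own error, which the tests do not see.

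With 200 of the genes shifted by 3 on the log2 scale in a simulation, the late against early fit at 0.5 Gy recovered 200 with 4 false calls among 22588 genes, that of 4 h against 0 h 197 with 6 among 28468, and, among 28162, the 0.2 Gy fit 197 with 12 and the difference between doses 187 with 6. The shifted genes of the simulation were drawn only from the more abundant ones. Its spread followed the trend over abundance, without differences between genes, time points of a side or generations. These rates therefore need not hold for the real libraries. Genes, lists and tests were chosen with earlier results of these data known. Transcripts were named at a mean TPM of at least 1, and pathway genes if called, or else the 2 with the largest absolute change of a list. Values of Mdm2-201, Mdm2-205 and Mdm2-207, which fall outside this rule, were added after they had been seen.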

Additional observations from a re-analysis of the deposited data

Results flagged for a closer look

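Ppm1d at 4 h in replicate 1 of 0.5 Gy, the only late library of the first generation, stood far from the other late libraries. It was at 29.2 CPM, while those of 2.5 h, 4 h (replicate 2) and 6 h were at 18.0 to 18.6 CPM. The gap to its neighbour was 0.946 of the range of the 4 libraries, above the 95% limit of Dixon's test for this number. These libraries join time points and generations, and the early first-generation libraries also stood above the early second-generation ones. Replicate 2 of 4 h was at 2.07 times the 0 h level of its own generation, and the flagged library at 2.06 times. Among the 14 groups searched, chance marks about 1 in 20. Without this library the late against early log2 fold change of Ppm1d was 0.51 with an SE of 0.26 and an adjusted p of 0.499 in edgeR's quasi-likelihood test, against 0.70 with it.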

How the results depend on the processing

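Over 34 results and 459 alternatives, 380 were labelled as unchanged. For fold changes, shares and the ratio this meant the same direction and side of the threshold. For counts of called genes it meant a count within 1.5 times the main one, and for transcripts an equal number of calls. The 380 include the coding share of Ppm1d, which cannot change, and the fit without the 2.5 h library of 0.5 Gy is counted more than once. The late against early log2 fold change of Mdm2 at 0.5 Gy missed the threshold with scaled TPM alone (2.81), where 0 genes were called in all, and the cause was not tested. Mdm2 passed against 0 h without a filter (2.20 at 2.5 h, 2.62 at 4 h, 3.35 at 6 h), with DESeq2 (1.70, 2.11 and 2.55) and, with the replicate block, at 4 h (2.48) and 6 h (3.01). Late against early at 0.2 Gy it passed without a filter (2.15), with the block (2.13) and with DESeq2 (1.81), and its range without 1 library was 2.04 to 2.25. Mdm4 at 2.5 h turned below 0 with size factors of DESeq2 (−0.0074), the block (−0.14), scaled TPM (−0.12) and DESeq2 (−0.012).

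Without 1 library, values that changed sign were those at 1 h of Mdm2 (−0.21 to 0.34), Ppm1d (−0.088 to 0.66) and Mdm4 (−0.34 to 0.13), Mdm4 at 2.5 h (−0.19 to 0.26) and the difference in Mdm4 coding share (−1.25 to 6.73 percentage points). None of these was called. The downstream-start share differed by 14.5 to 18.8 percentage points and the log2 ratio of Mdm2 to Mdm4 by 2.82 to 3.34 in these fits.

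Counts of called genes moved more. Late against early at 0.5 Gy, 29 became 58 without a filter, 18 with the block, 0 with scaled TPM, 200 with DESeq2, 14 without the 2.5 h library and 10 to 37 without 1 library. The 0 calls against 0 h became, without a filter and in order of time, 30, 56, 80 and 78. With DESeq2 they became 20, 83, 124 and 139, and with the block 1 at 2.5 h, 6 at 4 h and 7 at 6 h. Without 1 library they were 0 to 4, 0 to 7, 0 to 10 and 0 to 6. At 0.2 Gy, 13 became 32 without a filter, 7 with scaled TPM, 152 with DESeq2, 2 with the 0.2 Gy libraries alone, 28 with 2.5 h added and 1 to 18 without 1 library. For the difference between doses, 9 became 22, 5, 128 and 20 in the order no filter, scaled TPM, DESeq2 and 2.5 h added, and 0 to 13 without 1 library. DESeq2 called 3 transcripts of the 3 genes, and fits without 1 library called 0.

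Replicate numbers follow the generation label in the duplicates of 0, 1 and 4 h at 0.5 Gy, while the single libraries of either dose carry number 1 in other generations, and the block used the generation. Deviations of same-numbered libraries correlated at r = 0.115, 0.0716 and 0.0991 over 31254 genes for the pairs of time points. The main fits did not pair the samples. For the genes followed here, the duplicates of 0, 1 and 4 h differed in the same direction each time. Mdm2 and Mdm4 were higher in the second generation and Ppm1d in the first. With the block the SE late against early at 0.5 Gy went from 0.17 to 0.12 for Mdm4 and from 0.26 to 0.19 for Ppm1d. Ppm1d late against early at 0.5 Gy was 0.89 with the block and an adjusted p of 0.206 in edgeR. Single libraries at 2.5 and 6 h and at each time of 0.2 Gy limit all comparisons that use them.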
